A study of Mus musculus with 18 samples.

Results

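The 8 mouse genes described here, Areg, Ereg, Hbegf, Tgfa, Btc, Epgn, Nrg1 and Egf, encode ligands of the EGF receptor family and were chosen by gene symbol. They are 8 of the 36047 genes with a listed transcript in the RNA sequencing data of 18 libraries from mouse lung cancer cell lines. Each ligand is made as a precursor, in most cases anchored in the membrane, and proteases of the ADAM family release its soluble part. Amphiregulin (Areg), epigen (Epgn), EGF and TGF-alpha (Tgfa) bind EGFR. Betacellulin (Btc), HB-EGF (Hbegf) and epiregulin (Ereg) bind EGFR and ERBB4, and neuregulin 1 (Nrg1) binds ERBB3 and ERBB4. ERBB2 has no known ligand and signals as the partner of the other receptors. Ligand binding pairs the receptors and passes a signal through RAS to the ERK kinases, a route known for its part in lung epithelium and lung tumours.

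The study altered the kinase gene Dstyk in LLC, a line of the C57BL/6 strain labelled lung adenocarcinoma, and in UN-SCC679, a line of the A/J strain labelled lung squamous carcinoma. There were 3 libraries in each of 6 groups. LLC cells carrying sh3 in TPLKO were set against LLC cells with the empty TPLKO vector. The phenotype label DSTYK downregulation is given to sh3 and empty TPLKO libraries alike. The label DSTYK overexpression is likewise given to empty pLENTI6 libraries, so the groups were taken from the sample titles. UN-SCC679 cells with sh3 in TPLKO were set against UN-SCC679 cells with empty TPLKO. All 4 of these groups received doxycycline, the empty vectors included. UN-SCC679 cells overexpressing wild-type DSTYK from pLENTI6, labelled OE_DSTYKwt, were set against UN-SCC679 cells with empty pLENTI6. For both of these groups the treatment label is "N.A.". One sh3 construct was used, the labels do not say whether a population is 1 clone, and nothing in them says that libraries of a group came from separate cultures, so that p-values cover only the spread seen among libraries, part or all of which may be technical.

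Libraries held 40525385 to 46528071 estimated counts. Levels are given as CPM, the counts scaled to a common library size over all 18 libraries, or, between genes, as TPM, which is also scaled by transcript length. Against its own empty vector, Dstyk moved in the labelled direction in all 3 arms. Dstyk had 22.9, 24.1 and 22.7 CPM in LLC sh3 cells, against 43.2, 41.0 and 45.3 CPM in LLC empty TPLKO cells. It had 26.8, 26.8 and 25.3 CPM in UN-SCC679 sh3 cells, against 36.6, 36.4 and 38.3 CPM with empty TPLKO, and 36.7, 36.8 and 38.0 CPM in OE_DSTYKwt cells, against 29.0, 30.5 and 31.9 CPM with empty pLENTI6. The OE_DSTYKwt mean of 37.2 CPM was thus near the 37.1 CPM of UN-SCC679 empty TPLKO cells. The OE_DSTYKwt change was log2 0.29, and Dstyk was lower with empty pLENTI6 than with empty TPLKO by log2 -0.26. The sh3 effect on Dstyk was larger in LLC (log2 fold change -0.89, SE 0.044) than in UN-SCC679 (-0.50, SE 0.040), with a difference of -0.40 (SE 0.062, adjusted p = 3.49e-05, edgeR's quasi-likelihood test). The first empty pLENTI6 library stood apart: its counts differed from those of the other two by a mean chi-square per gene of 12.2 and 13.8, while pairs within the other groups, and the other pair of this group, gave 1.92 to 5.04. Differences were broad. At an adjusted p under 0.05, 72.6% of 13767 tested genes were called between the LLC groups, 63.8% of 14271 between the UN-SCC679 TPLKO groups and 29.7% of 13975 between the pLENTI6 groups, so that a called gene is not by itself unusual in the first 2.

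The feature that makes these proteins a family is the EGF-like domain, a loop fold held by 3 disulfide bonds between 6 cysteines at set distances. The coding sequence of the most abundant protein-coding transcript of each of the 8 genes held exactly 1 stretch with that spacing (cysteine, 7 residues, cysteine, 4 or 5, cysteine, 10 to 13, cysteine, 1, cysteine, 8, cysteine). The stretch had 36 codons in Areg, Ereg, Hbegf, Tgfa, Btc and Epgn, 37 in Egf and 40 in Nrg1. The stretches below are from GENCODE transcripts of the GRCm38 build, 5′ to 3′, with the cysteine codons in capitals. They are shown for the 3 ligands of chromosome 5 that were higher in both sh3 arms. Nrg1, the ligand with the highest TPM in UN-SCC679, is shown as well.
Areg, codons 139 to 174 of Areg-201, chromosome 5, plus strand: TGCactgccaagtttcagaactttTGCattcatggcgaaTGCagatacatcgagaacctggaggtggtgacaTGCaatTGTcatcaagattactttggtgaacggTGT
Ereg, codons 61 to 96 of Ereg-201, chromosome 5, plus strand: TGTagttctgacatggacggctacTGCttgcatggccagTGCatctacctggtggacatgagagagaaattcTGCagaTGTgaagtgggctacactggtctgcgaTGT
Btc, codons 69 to 104 of Btc-201, chromosome 5, minus strand: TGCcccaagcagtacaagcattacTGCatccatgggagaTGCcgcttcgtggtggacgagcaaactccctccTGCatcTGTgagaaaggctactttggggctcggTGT
Nrg1, codons 182 to 221 of Nrg1-203, chromosome 8, minus strand: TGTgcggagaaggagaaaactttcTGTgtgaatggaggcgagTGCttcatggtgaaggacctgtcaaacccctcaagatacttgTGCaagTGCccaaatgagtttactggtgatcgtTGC

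In the empty TPLKO groups the lines used different ligands, as the bars of ligand make-up show. The 8 genes summed to 106 ± 2.0 TPM in LLC and 88.1 ± 1.6 TPM in UN-SCC679 (SD, n = 3 each). Areg made up 68.0% of that sum in LLC and 1.73% in UN-SCC679. Nrg1 made up 0.704% in LLC and 75.2% in UN-SCC679. Hbegf was the second ligand of UN-SCC679 by TPM, with 15.4% of the sum there and 11.3% in LLC. Between these groups 82.9% of 14351 tested genes were called, 40.9% higher and 42% lower in LLC, and among the ligands 4 were higher and 3 lower in LLC of the 7 that passed the count filter, so the number called is near that background. Values of the 2 lines did not overlap for 84.2% of the tested genes. Line, strain and tumour type cannot be told apart in this comparison.

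**Figure D1:**
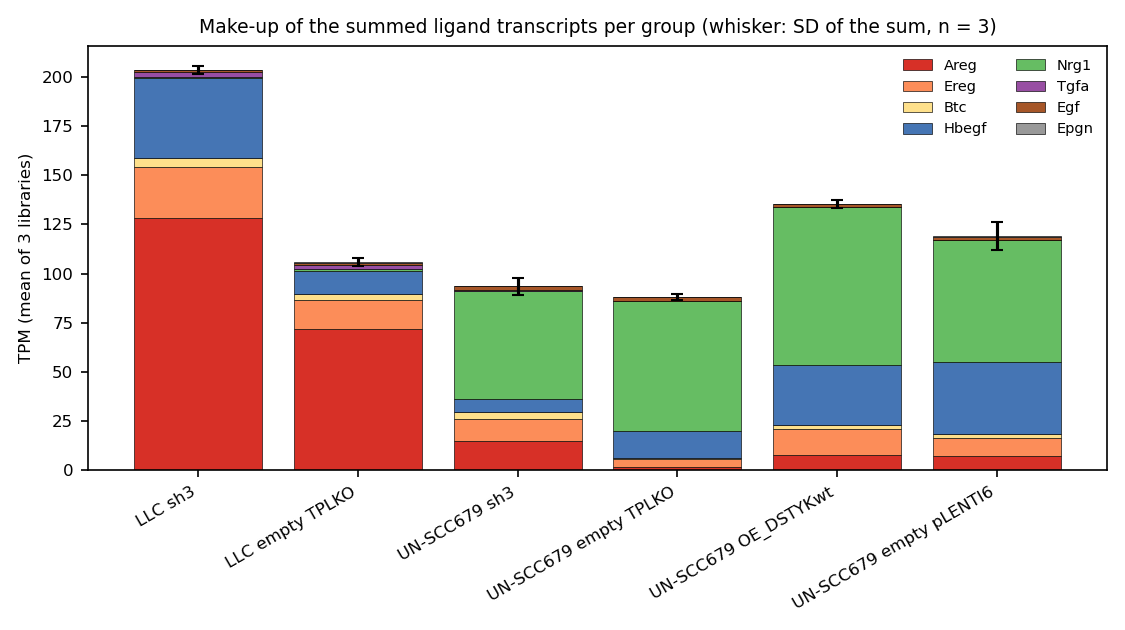
Mean TPM of the 8 ligand genes stacked per group, with the SD of the sum over 3 libraries as whisker. Areg fills most of the bar in both LLC groups and Nrg1 most of the bar in the 4 UN-SCC679 groups, and the sum was 204 TPM in LLC sh3 cells against 106 TPM in LLC empty TPLKO cells.

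Areg had 51.2, 50.6 and 51.5 CPM in LLC and 1.04, 0.935 and 1.21 CPM in UN-SCC679, a 47.8-fold difference (log2 5.58, SE 0.070, adjusted p = 1.31e-14). Nrg1 had 1.62, 1.27 and 1.17 CPM in LLC and 138, 142 and 146 CPM in UN-SCC679, 105-fold lower in LLC (log2 -6.72, SE 0.062, adjusted p = 1.30e-15). For both genes the lines were far apart in every library. Tgfa had 6.80, 6.14 and 5.56 CPM in LLC, against 0.145, 0.178 and 0.126 CPM in UN-SCC679 (log2 5.31, SE 0.21, and 1.54 on log2(TPM + 1), where the added 1 shrinks low genes). Ereg (log2 1.98, SE 0.068) and Btc (log2 1.86, SE 0.16, and 1.12 on log2(TPM + 1)) were also higher in LLC. Egf, at 1.54 ± 0.24 CPM in LLC and 3.17 ± 0.15 CPM in UN-SCC679, was lower in LLC (log2 -1.06, SE 0.17, adjusted p = 1.36e-04). After subtracting the median change of its chromosome, which was -0.68 on chromosome 3, the Egf difference was -0.38 with an adjusted p of 0.0607. Hbegf was nearly level, at 17.1 ± 0.93 CPM in LLC and 19.0 ± 0.34 CPM in UN-SCC679 (log2 -0.17, SE 0.057, adjusted p = 0.0176). That call was lost without the second LLC library (-0.12, adjusted p = 0.0830) or without the first UN-SCC679 library (-0.15, adjusted p = 0.0561), while the chromosome correction gave -0.35.

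In LLC, sh3 cells had higher transcript levels of 4 ligands: Hbegf, Areg, Ereg and Btc. The summed level of the 8 genes was 204 ± 2.2 TPM in sh3 cells and 106 ± 2.0 TPM in empty TPLKO cells. Hbegf took 19.96% of the sum in sh3 cells and 11.3% with the empty vector. Areg took 62.9% with sh3 and 68.0% with the empty vector. Of the 7 ligands that passed the count filter, 4 were called higher and 1 lower, beside 36.2% and 36.4% of all tested genes. The median log2 change of these 7 was 0.72, and that of all tested genes 0.0099. In bulk libraries, more cells that make a transcript and more of it per cell cannot be told apart.

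**Figure D2:**
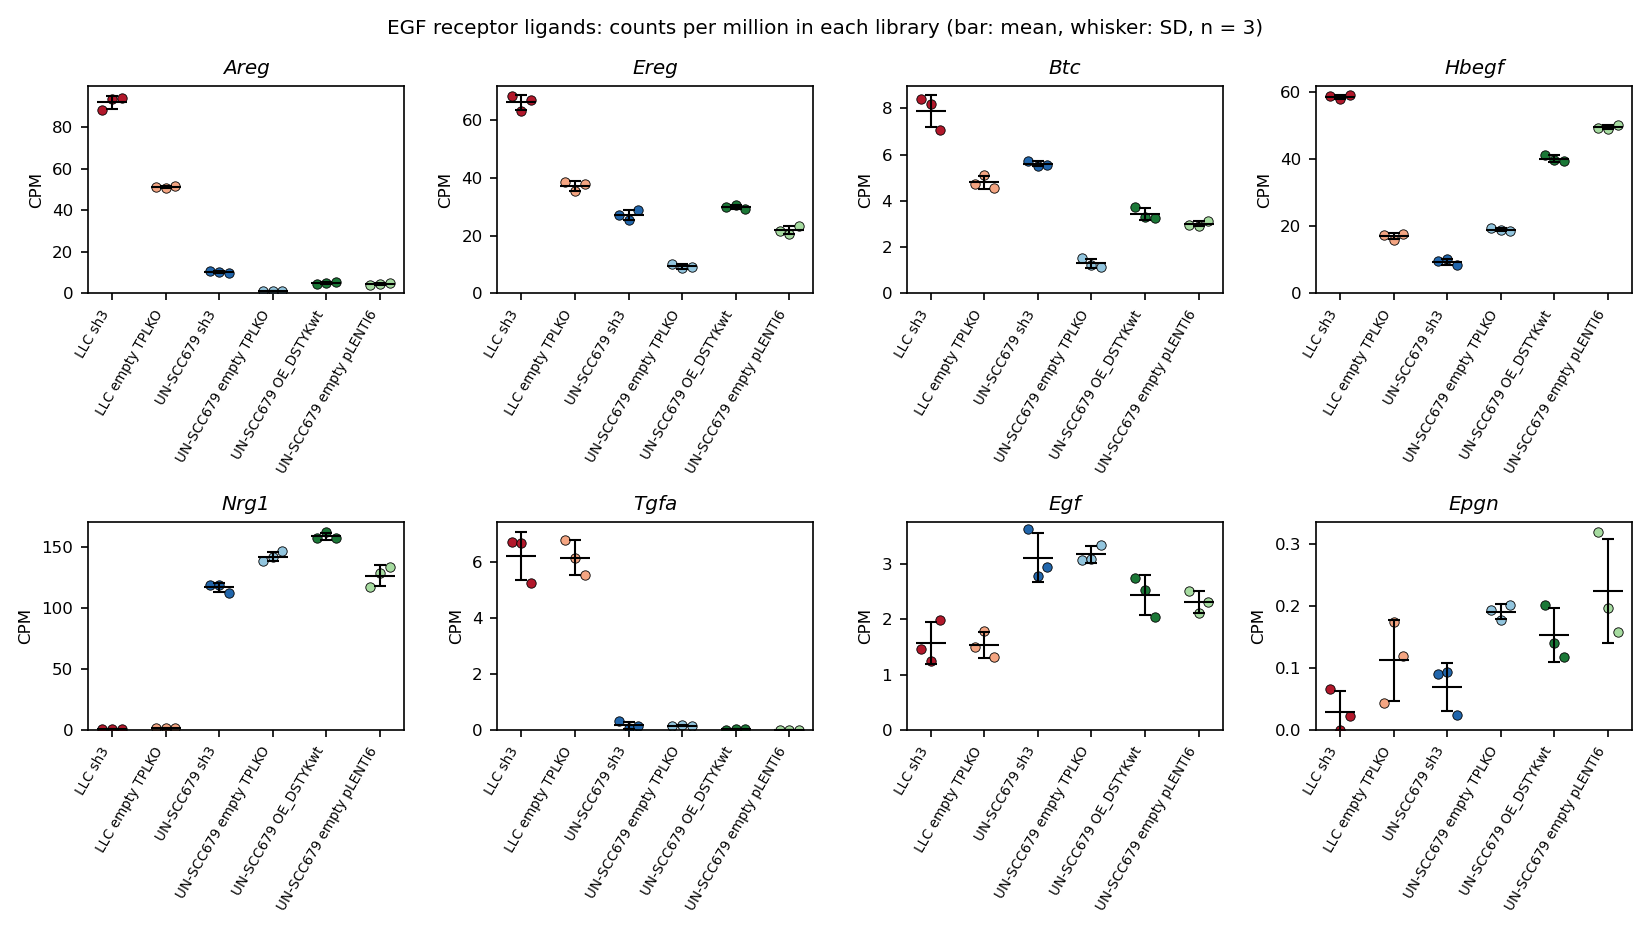
CPM of each ligand in each library (points), with the mean and SD of 3 libraries; every vertical axis starts at 0 and has its own range. Hbegf is near 59 CPM in LLC sh3 cells and near 17 CPM in LLC empty TPLKO cells, whereas in UN-SCC679 it is lower with sh3 than with empty TPLKO.

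Hbegf, whose membrane-bound form is also the receptor of diphtheria toxin in humans, had 58.8, 57.9 and 59.3 CPM in LLC sh3 cells, against 17.4, 16.04 and 17.8 CPM in empty TPLKO cells. All sh3 libraries were far above all empty-vector libraries, and the fit gave 3.44-fold (log2 1.78, SE 0.040, adjusted p = 8.11e-13). Areg, the autocrine growth factor with the highest TPM in LLC, had 88.1, 93.6 and 93.7 CPM with sh3 and 51.2, 50.6 and 51.5 CPM with the empty vector (log2 0.85, SE 0.031, adjusted p = 6.60e-11). Ereg had 68.2, 63 and 66.8 CPM with sh3 and 38.5, 35.2 and 37.7 CPM with the empty vector (log2 0.83, SE 0.041, adjusted p = 9.78e-10). The groups did not overlap for either gene, which held for 75.9% of all tested genes, and both were about 1.8-fold higher. Btc stood at a lower level, with 8.38, 8.19 and 7.08 CPM in sh3 cells and 4.74, 5.10 and 4.56 CPM in empty TPLKO cells (log2 0.72, SE 0.097, adjusted p = 1.87e-05), again without overlap.

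The other ligands of LLC were not called higher. Tgfa had 6.72, 6.70 and 5.25 CPM with sh3 and 6.80, 6.14 and 5.56 CPM with the empty vector, and the groups overlapped (log2 0.02, SE 0.12, adjusted p = 0.904). Egf also overlapped, at 1.57 ± 0.38 CPM with sh3 and 1.54 ± 0.24 CPM with the empty vector (log2 0.03, SE 0.23, adjusted p = 0.910). Nrg1 rested on 39, 31 and 36 counts in sh3 cells and 73, 51 and 49 counts in empty TPLKO cells, and was called lower (log2 -0.79, SE 0.25, adjusted p = 0.0131). The Nrg1 call was lost without the second sh3 library (-0.69, adjusted p = 0.0537), without the first empty TPLKO library (-0.64, adjusted p = 0.0689), with effective length as an offset (-0.27, adjusted p = 0.446) and on log2(TPM + 1) (-0.11, adjusted p = 0.392). Epgn, with 4 counts over the sh3 libraries and 14 over the empty TPLKO libraries, did not pass the filter.

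In UN-SCC679, sh3 cells had higher Areg, Btc and Ereg and lower Hbegf and Nrg1. Of the 6 ligands that passed the filter, 3 were called higher and 2 lower, beside 31.8% and 32% of all tested genes. Their median log2 change was 0.76, and that of all tested genes 0.011. The ligand median fell in a gap between Ereg (log2 1.54) and Egf (log2 -0.02), so it does not describe a shift of all members. Because Nrg1 outweighed the rest, the sum of the 8 genes was 93.5 ± 4.4 TPM with sh3 and 88.1 ± 1.6 TPM with empty TPLKO. Without Nrg1 the other 7 summed to 38.1 ± 0.69 TPM with sh3 and 21.9 ± 0.60 TPM with empty TPLKO. Of that smaller sum Areg made up 38.7% with sh3 and 6.95% with empty TPLKO, and Hbegf 17.5% with sh3 and 61.9% with empty TPLKO.

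**Figure D3:**
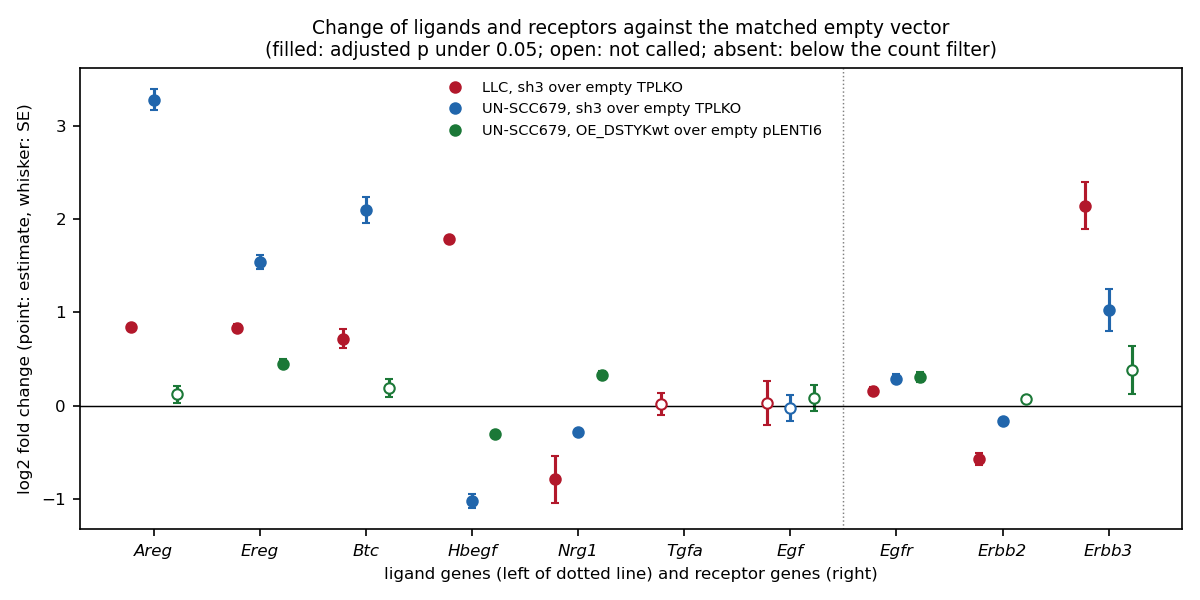
Log2 fold change of ligands and receptors with its SE in the 3 comparisons with an empty vector; filled points passed an adjusted p of 0.05. Areg, Ereg and Btc lie above 0 in both sh3 comparisons, while Hbegf is at 1.78 in LLC and -1.02 in UN-SCC679.

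Areg had 10.6, 10.3 and 10.03 CPM in UN-SCC679 sh3 cells, against 1.04, 0.935 and 1.21 CPM in empty TPLKO cells. These were 410 to 470 counts per sh3 library and 42 to 48 per empty-vector library, and the change was 9.72-fold (log2 3.28, SE 0.11, adjusted p = 3.43e-10). Btc had 5.72, 5.52 and 5.55 CPM with sh3 and 1.53, 1.22 and 1.16 CPM with empty TPLKO, a 4.29-fold change (log2 2.10, SE 0.14, adjusted p = 1.01e-07, and 1.30 on log2(TPM + 1)). Ereg had 27.2, 25.5 and 28.9 CPM with sh3 and 10.3, 8.62 and 9.09 CPM with empty TPLKO, a 2.91-fold change (log2 1.54, SE 0.074, adjusted p = 6.15e-09). The sh3 libraries were the higher ones and did not overlap with the empty TPLKO libraries in any of the 3, as was so, in either direction, for 68.1% of all tested genes.

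Hbegf went the other way, with 9.58, 10.2 and 8.37 CPM in UN-SCC679 sh3 cells, against 19.4, 19.0 and 18.7 CPM in empty TPLKO cells. The groups were apart, and the level was 2.03-fold lower with sh3 (log2 -1.02, SE 0.073, adjusted p = 1.94e-07). Nrg1 had 119, 119 and 112 CPM with sh3 and 138, 142 and 146 CPM with empty TPLKO (log2 -0.28, SE 0.029, adjusted p = 4.78e-06). The median change of all tested genes on chromosome 8, where Nrg1 lies, was -0.19, and with that subtracted the Nrg1 change was -0.09 (adjusted p = 0.0178). Egf overlapped between the groups, at 3.12 ± 0.45 CPM with sh3 and 3.17 ± 0.15 CPM with empty TPLKO (log2 -0.02, SE 0.14, adjusted p = 0.892). Tgfa, with 22 counts over the sh3 libraries and 19 over the empty TPLKO libraries, and Epgn, with 9 counts with sh3 and 24 with empty TPLKO, did not pass the filter.

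The sh3 effects in the 2 lines were compared by the interaction contrast over the 12 libraries, in which 60% of 15399 tested genes were called, 28.1% with a higher and 31.9% with a lower effect in LLC. Hbegf differed most among the ligands: its effect was higher in LLC than in UN-SCC679 by 2.80 on the log2 scale (SE 0.078, adjusted p = 4.63e-14). Every sh3 library was above its empty-vector libraries in LLC and below them in UN-SCC679. How many of all tested genes were separated in opposite directions like this was not counted. For Areg (-2.44, SE 0.095), Btc (-1.38, SE 0.16, and -0.77 on log2(TPM + 1)) and Ereg (-0.71, SE 0.085) the direction was shared and the effect was smaller in LLC, with adjusted p values of 2.49e-12, 1.28e-06 and 1.85e-06. Their level in empty TPLKO cells was also higher in LLC than in UN-SCC679, with 51.1 CPM in LLC and 1.06 CPM in UN-SCC679 for Areg. The contrast for Nrg1 (-0.51, SE 0.17, adjusted p = 0.0168) rested on the low LLC counts. Of the ligands tested, Tgfa (-0.17, SE 0.50) and Egf (0.05, SE 0.27) were not called.

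OE_DSTYKwt cells differed from empty pLENTI6 cells by less. Ereg and Nrg1 were called higher and Hbegf lower among the 6 ligands that passed the filter, which is 2 and 1, beside 14.6% and 15.2% of all tested genes. The median log2 change of the 6 was 0.16 and that of all tested genes 0.0026. The 8 genes summed to 135 ± 1.9 TPM in OE_DSTYKwt cells and 119 ± 7.3 TPM in empty pLENTI6 cells, and Nrg1 made up 59.2% of the sum in OE_DSTYKwt cells and 52.1% with empty pLENTI6.

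Ereg had 29.8, 30.5 and 29.3 CPM in OE_DSTYKwt cells, against 21.4, 20.6 and 23.4 CPM in empty pLENTI6 cells (log2 0.45, SE 0.050, adjusted p = 1.54e-04). Nrg1 had 158, 162 and 157 CPM with OE_DSTYKwt, against 117, 129 and 134 CPM with empty pLENTI6 (log2 0.33, SE 0.043, adjusted p = 4.14e-04). Hbegf, by contrast, had 41.3, 39.9 and 39.5 CPM with OE_DSTYKwt, against 49.5, 49.0 and 50.3 CPM with empty pLENTI6 (log2 -0.30, SE 0.030, adjusted p = 7.66e-05). None of these 3 overlapped between the groups, which held for 46% of all tested genes, although the lowest Nrg1 value came from the first empty pLENTI6 library, the one that stood apart. Without it the changes were 0.44 for Ereg, 0.28 for Nrg1 and -0.30 for Hbegf, and all 3 were still called. Areg had 4.57, 5.09 and 5.34 CPM in OE_DSTYKwt cells and 4.22, 4.58 and 4.95 CPM in empty pLENTI6 cells, and these overlapped (log2 0.12, SE 0.091, adjusted p = 0.345). Btc had 3.72, 3.28 and 3.27 CPM with OE_DSTYKwt, against 2.97, 2.92 and 3.13 CPM with empty pLENTI6, with no overlap but no call (log2 0.19, SE 0.097, adjusted p = 0.179). Egf overlapped, at 2.45 ± 0.36 CPM in OE_DSTYKwt cells and 2.31 ± 0.19 CPM in empty pLENTI6 cells (log2 0.08, adjusted p = 0.694).

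Tgfa was near the limit of detection in the pLENTI6 cells, with 0, 1 and 2 counts in OE_DSTYKwt libraries and none in the 3 empty pLENTI6 libraries, where a count of 0 allows up to 3 counts or 0.0231 CPM over the group (counting error only). Epgn had 20 counts over the OE_DSTYKwt libraries and 29 over the empty pLENTI6 libraries.

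Lowering and raising Dstyk were set against each other in UN-SCC679 as the sh3 effect minus the OE_DSTYKwt effect, each against its own vector, where 51.9% of 14975 tested genes were called, 26.1% positive and 25.8% negative. The differences were 3.16 for Areg (SE 0.15, adjusted p = 2.97e-10), 1.92 for Btc (SE 0.16, adjusted p = 1.44e-07, and 1.16 on log2(TPM + 1)) and 1.09 for Ereg (SE 0.091, adjusted p = 1.49e-07). Those of Hbegf (-0.72, SE 0.069, adjusted p = 6.04e-07) and Nrg1 (-0.61, SE 0.058, adjusted p = 5.49e-07) were negative. Ereg was higher in both altered arms and Hbegf lower in both, each by more under sh3, whereas Nrg1 was lower under sh3 and higher under OE_DSTYKwt.

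UN-SCC679 cells with the 2 empty vectors were far from alike. Their treatment labels differed as well, doxycycline with TPLKO and "N.A." with pLENTI6. The deposited library names also write the line differently in the TPLKO and pLENTI6 sets. Whether these are the same subline or batch is not stated there. Of 14080 tested genes, 68.7% were called between them, 35.4% higher and 33.3% lower with pLENTI6. Empty pLENTI6 cells had higher Areg, Hbegf, Ereg and Btc than empty TPLKO cells, with lower Egf and Nrg1, so that 4 of the 6 ligands that passed the filter were called higher and 2 lower. Areg had 4.22, 4.58 and 4.95 CPM with empty pLENTI6, against 1.04, 0.935 and 1.21 CPM with empty TPLKO (log2 2.13, SE 0.15, adjusted p = 7.77e-07). Hbegf had 49.5, 49.0 and 50.3 CPM with empty pLENTI6, against 19.4, 19.0 and 18.7 CPM with empty TPLKO (log2 1.40, SE 0.036, adjusted p = 8.75e-10). The empty-vector groups did not overlap for either, which held for 73.2% of all tested genes. Ereg (log2 1.24, SE 0.077) and Btc (log2 1.23, SE 0.16, and 0.64 on log2(TPM + 1)) were higher by similar amounts.

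Egf (log2 -0.44, SE 0.13, adjusted p = 0.0122) was not called with a length offset (-0.09, adjusted p = 0.619), on log2(TPM + 1) (-0.08, adjusted p = 0.407) or without the second empty pLENTI6 library (-0.38, adjusted p = 0.0555). Nrg1 (log2 -0.15, SE 0.047, adjusted p = 0.0182) was not called without the third empty TPLKO library (-0.13, adjusted p = 0.0704), with library size alone (-0.11, adjusted p = 0.0569), with the length offset (-0.06, adjusted p = 0.330) or on log2(TPM + 1) (-0.10, adjusted p = 0.202), and lay at 0.0070 after the chromosome correction. This comparison shares the empty TPLKO libraries with the sh3 comparison, and those 3 libraries held the lowest Areg, Ereg and Btc of all groups. Set side by side, the log2 values against empty TPLKO were 3.28 with sh3 and 2.13 with empty pLENTI6 for Areg, 1.54 and 1.24 for Ereg, 2.10 and 1.23 for Btc, and -1.02 and 1.40 for Hbegf.

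The order of levels over the 6 groups differed by ligand. In the comparisons where it was counted, groups did not overlap for 46% to 84.2% of all tested genes. For other neighbouring groups that share was not counted. Areg ran, high to low, from LLC sh3 and LLC empty TPLKO through UN-SCC679 sh3, OE_DSTYKwt and empty pLENTI6 to UN-SCC679 empty TPLKO, over an 86.4-fold range of means, and of neighbouring groups OE_DSTYKwt and empty pLENTI6 alone overlapped. Ereg spanned 7.06-fold between the same ends, with OE_DSTYKwt above UN-SCC679 sh3 and no overlap between neighbours. Btc spanned 6.05-fold, with UN-SCC679 sh3 second, above LLC empty TPLKO, and no overlap between neighbours. Hbegf spanned 6.26-fold from LLC sh3 through empty pLENTI6, OE_DSTYKwt, UN-SCC679 empty TPLKO and LLC empty TPLKO to UN-SCC679 sh3, also without overlap. Nrg1 spanned 203-fold from OE_DSTYKwt through the other UN-SCC679 groups to LLC sh3, and empty pLENTI6 overlapped with UN-SCC679 sh3. Egf spanned 2.07-fold, and its order held only as 3 pairs of overlapping groups: the UN-SCC679 TPLKO groups above the pLENTI6 groups, and those above both LLC groups.

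Areg, Ereg, Btc and Epgn lie together on chromosome 5 of the mouse. In GRCm38 Epgn is at chr5:91027464-91035215 (plus strand), Ereg at chr5:91074622-91093646 (plus), Areg at chr5:91139599-91148432 (plus) and Btc at chr5:91357261-91402994 (minus). Antisense genes are annotated across parts of Ereg, Egf and Egfr, and where they overlap, reads of both cannot be told apart unless the counting used strand, which is not stated. Hbegf lies on chromosome 18, Nrg1 on 8, Tgfa on 6 and Egf on 3. Of 22 annotated and listed genes within 500 kb of the 4, 12 passed the filter in at least 1 comparison. In UN-SCC679 sh3 cells 4 neighbouring chemokine genes, whose products attract neutrophils, were higher too, while the chemokine gene Ppbp among them was not called (log2 0.50, SE 0.45, adjusted p = 0.350). Cxcl5 had 60.7 CPM with sh3 and 12.6 CPM with empty TPLKO (log2 2.27, SE 0.061). Cxcl15 (log2 2.46, SE 0.18), Cxcl2 (log2 1.57, SE 0.20), Cxcl1 (log2 1.53, SE 0.090) and Parm1 (log2 2.71, SE 0.22), a mucin-like membrane protein gene, were also called higher, with adjusted p values of 2.37e-07, 2.21e-05, 3.67e-08 and 6.05e-07. Differences as large lay between the empty vectors of UN-SCC679. With pLENTI6, Cxcl5 (log2 -2.27), Cxcl15 (log2 -4.95) and Cxcl2 (log2 -0.85) were lower than with TPLKO, while Cxcl1 and Parm1 were not called.

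Mthfd2l, a mitochondrial folate enzyme gene between the chemokines and Epgn, had 16.3 CPM with sh3 and 15.7 CPM with empty TPLKO (log2 0.05, SE 0.077, adjusted p = 0.598). In LLC sh3 cells the chemokine neighbours did not follow Ereg, Areg and Btc: Cxcl5 was lower (log2 -0.39, SE 0.067, adjusted p = 1.65e-04) and Cxcl1 was not called (log2 -0.06, SE 0.096, adjusted p = 0.578). The pseudogene Gm5558 was lower there (log2 -1.49, SE 0.44, adjusted p = 8.13e-03). In OE_DSTYKwt cells Parm1 was called (log2 0.62, SE 0.21, adjusted p = 0.0487), a call lost in 12 of 14 alternatives with adjusted p values up to 0.212, while Cxcl5, Cxcl1, Cxcl2 and Mthfd2l were not. The median over all tested genes of chromosome 5 was -0.02 in LLC, -0.02 in UN-SCC679 sh3 cells and 0.04 in OE_DSTYKwt cells, and the changes of Areg, Ereg and Btc were far from it where they were called.

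**Figure D4:**
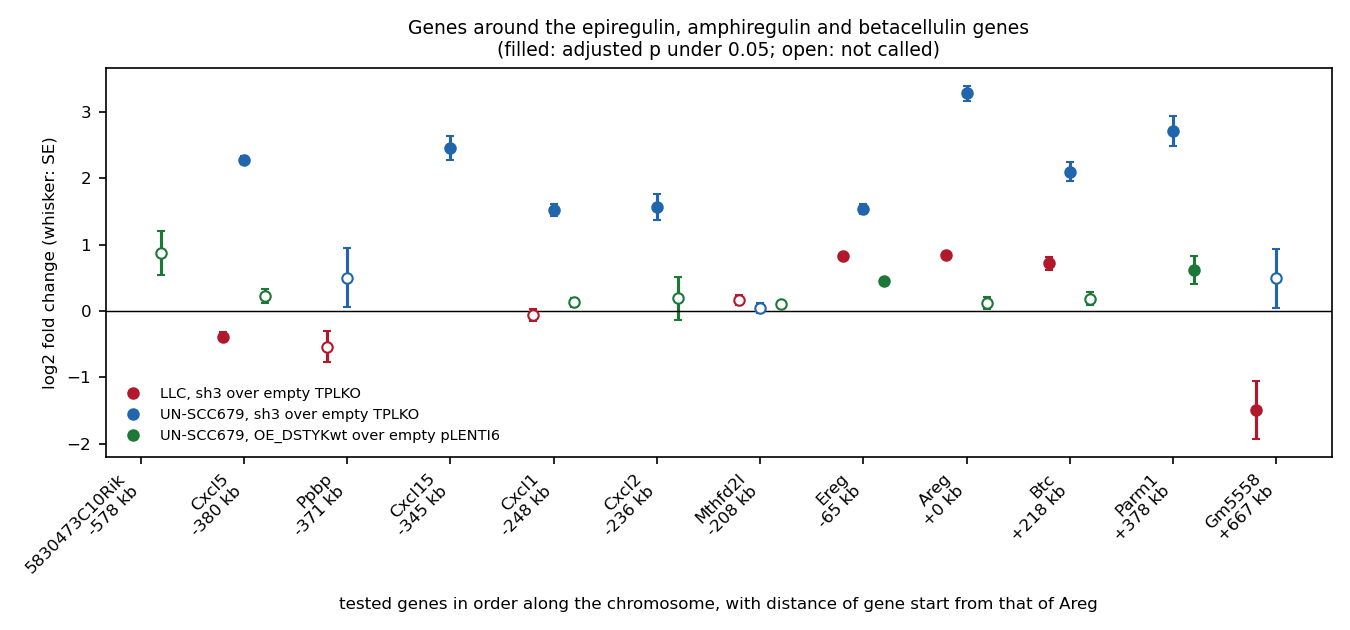
Log2 fold change with SE of the tested genes around Areg on chromosome 5, in chromosomal order, with the distance of each start from that of Areg; filled points passed an adjusted p of 0.05, and genes at 0 CPM in a group are left out. With sh3 in UN-SCC679 the Cxcl genes, Ereg, Areg, Btc and Parm1 lie above 1 and Mthfd2l is at 0.05, whereas in LLC Cxcl5 is at -0.39.

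Sequences before the start site were at hand from RefSeq (GRCm38.p6) for 5 of the 8 ligands, Areg, Btc, Egf, Epgn and Tgfa. They are shown for Areg and Btc, which were higher in both sh3 arms, and for Epgn of the same cluster, which stayed near 0 in every group. Each line gives the 250 bases before the start, 5′ to 3′ on the gene's strand, with matches to the searched motifs in capitals.
Areg, chr5:91139349-91139598, plus strand: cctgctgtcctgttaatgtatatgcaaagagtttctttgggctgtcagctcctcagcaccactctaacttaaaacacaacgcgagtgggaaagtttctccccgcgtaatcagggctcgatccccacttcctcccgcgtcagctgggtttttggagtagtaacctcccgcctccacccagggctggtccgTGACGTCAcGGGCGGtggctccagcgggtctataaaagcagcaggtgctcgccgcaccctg
Btc, chr5:91402995-91403244, minus strand: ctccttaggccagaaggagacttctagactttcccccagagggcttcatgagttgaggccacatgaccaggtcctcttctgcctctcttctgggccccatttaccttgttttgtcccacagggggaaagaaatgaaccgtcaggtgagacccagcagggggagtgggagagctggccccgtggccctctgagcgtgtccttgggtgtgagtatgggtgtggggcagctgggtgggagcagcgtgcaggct
Epgn, chr5:91027267-91027516, plus strand: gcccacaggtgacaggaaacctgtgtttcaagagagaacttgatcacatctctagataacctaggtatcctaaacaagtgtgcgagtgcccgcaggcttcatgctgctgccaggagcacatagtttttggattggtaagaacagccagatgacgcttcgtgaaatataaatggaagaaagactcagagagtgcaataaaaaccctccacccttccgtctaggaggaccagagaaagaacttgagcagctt

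The motifs were searched on both strands as TGANTCA (AP-1), TGACGTCA (cyclic AMP response element, CRE), GGAATG (TEAD), CCGGAA (ETS) and GGGCGG (SP1), none of which contains another. The Areg window held a full CRE starting at position -61 from the start site and an SP1 motif at -52. Of all 32851 windows of the same length, 1.55% held the CRE letters and 32.7% the SP1 letters. The Tgfa window held SP1 motifs at -126 and -15, and 1 of the 2 Egf windows an ETS motif at -45, found in 12.03% of windows. AP-1 letters, in 6.75% of windows, and TEAD letters, in 12.6%, were in none of the member windows, and those of Btc and Epgn held none of the 5 motifs.

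Of the receptors, Egfr was slightly higher in all 3 arms, Erbb2 lower in both sh3 arms and Erbb3 higher in both. Egfr had 70.4 ± 3.5 CPM in LLC sh3 cells and 63.1 ± 1.9 CPM in empty TPLKO cells (log2 0.16, SE 0.038, adjusted p = 1.72e-03, and 0.31 on log2(TPM + 1)). It had 24.6 ± 1.1 CPM in UN-SCC679 sh3 cells and 20.1 ± 0.47 CPM with empty TPLKO (log2 0.29, SE 0.049, adjusted p = 2.76e-04), and 29.8 ± 0.11 CPM in OE_DSTYKwt cells and 24.1 ± 2.0 CPM with empty pLENTI6 (log2 0.31, SE 0.056, adjusted p = 2.79e-03). Both UN-SCC679 calls were lost on log2(TPM + 1), with adjusted p values of 0.0874 and 0.347, and the OE_DSTYKwt call also with the length offset (0.14, adjusted p = 0.345). Erbb2 was lower with sh3 in LLC, at 24.3 ± 1.7 CPM against 36.2 ± 3.4 CPM with the empty vector (log2 -0.57, SE 0.065, adjusted p = 3.93e-06). In UN-SCC679 it was at 62.98 ± 2.4 CPM with sh3 and 70.4 ± 1.5 CPM with empty TPLKO (log2 -0.16, SE 0.033, adjusted p = 1.27e-03), a call lost after the chromosome correction (-0.07, adjusted p = 0.0784). It was not called in OE_DSTYKwt cells (log2 0.07, adjusted p = 0.0878). Between the empty vectors of UN-SCC679, Egfr was higher with pLENTI6 than with TPLKO (log2 0.28) and Erbb2 lower (log2 -0.12). Both calls were lost on log2(TPM + 1) and with the length offset, and Erbb3 was not called (log2 -0.50).

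Erbb3, the receptor that pairs with ERBB2 to signal for neuregulins, was low in every group. It had 1.84, 1.68 and 1.70 CPM in LLC sh3 cells, against 0.421, 0.323 and 0.430 CPM with the empty vector (log2 2.14, SE 0.25, adjusted p = 5.52e-06). In UN-SCC679 it had 1.82, 1.55 and 1.74 CPM with sh3, against 0.944, 0.824 and 0.730 CPM with empty TPLKO (log2 1.03, SE 0.23, adjusted p = 1.74e-03). The groups were apart in both lines, and on log2(TPM + 1) the changes were 0.41 and 0.26. Erbb4 had 1 count in a single OE_DSTYKwt library and none in the other 17. Among the other neuregulins, Nrg2 was called higher in LLC sh3 cells at a level of 0.573 CPM, against 0.232 CPM with the empty vector (log2 1.29, SE 0.39, adjusted p = 9.30e-03). With the length offset Nrg2 was at 0.93 and not called (adjusted p = 0.0589), and on log2(TPM + 1) it was at 0.36.

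The proteases that release ligands and their partners moved in both directions. In LLC sh3 cells 6 of 11 tested genes of this list were higher and 4 lower, in UN-SCC679 sh3 cells 8 and 4 of 13, and in OE_DSTYKwt cells 3 and 3 of 12. Of all tested genes 36.2% were higher and 36.4% lower in LLC sh3 cells, 31.8% and 32% in UN-SCC679 sh3 cells, and 14.6% and 15.2% in OE_DSTYKwt cells. The list's median log2 changes were 0.20, 0.31 and -0.03, beside 0.0099, 0.011 and 0.0026 over all tested genes. Adam8, a membrane metalloprotease, had 22.01 ± 0.83 CPM in LLC sh3 cells and 6.39 ± 0.36 CPM with the empty vector (log2 1.79, SE 0.064, adjusted p = 5.31e-11). Frmd8, which keeps the ADAM17 complex at the cell surface, had 46.95 ± 0.55 CPM with sh3 and 75.9 ± 1.9 CPM with the empty vector (log2 -0.69, SE 0.030, adjusted p = 3.00e-10). In UN-SCC679 sh3 cells Timp3, an inhibitor of ADAM17, was lower (log2 -0.96, SE 0.013, adjusted p = 1.83e-13). Adam19, with 0.617 CPM in sh3 cells and 0.0336 CPM with empty TPLKO, was higher (adjusted p = 3.45e-04). In OE_DSTYKwt cells Adam12, a protease reported to shed HB-EGF, was lower (log2 -0.64, SE 0.050) and Rhbdl2, a rhomboid protease reported to cleave EGF, was higher (log2 0.49, SE 0.077). Adam12 was lower in UN-SCC679 sh3 cells as well (log2 -0.63). There Adam8 (log2 0.61) and Frmd8 (log2 0.31) were higher, the Frmd8 call being lost in 1 of 15 alternatives. Adam19 was higher in LLC sh3 cells too (log2 0.20), a call lost in 8 of 15 alternatives.

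**Figure D5:**
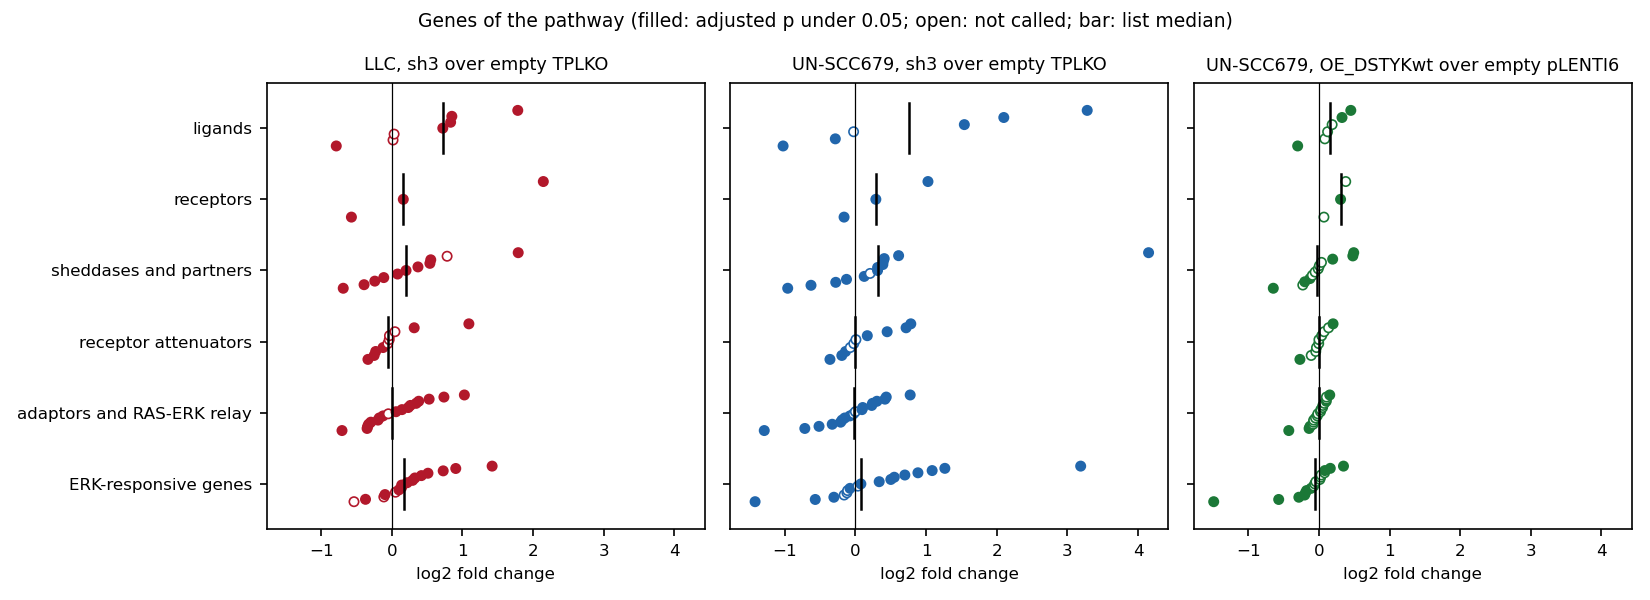
Log2 fold change of each tested gene in 6 lists of the pathway, 1 panel per comparison with an empty vector; bars mark list medians and filled points passed an adjusted p of 0.05. Ligand medians are 0.72, 0.76 and 0.16, while those of the adaptors and the RAS-ERK relay lie near 0 in all 3 panels.

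Genes that dampen the receptors were split. In LLC sh3 cells 2 of 10 were higher and 4 lower, in UN-SCC679 sh3 cells 4 and 3, and in OE_DSTYKwt cells 1 and 1, with medians of -0.05, -0.0070 and -0.00037, beside 0.0099, 0.011 and 0.0026 over all tested genes. The called share of all tested genes was 72.6%, 63.8% and 29.7% in these comparisons, which is also the background for the adaptors. Lrig1, which promotes the breakdown of ERBB receptors, was lower in all 3 arms. It had 201 ± 5.8 CPM in LLC sh3 cells, against 255 ± 1.7 CPM with the empty vector (log2 -0.34). The log2 change was -0.14 in UN-SCC679 sh3 cells and -0.27 in OE_DSTYKwt cells, while Lrig3 was higher in LLC sh3 cells (log2 1.09). Ptprj, a phosphatase that acts on EGFR, was higher in UN-SCC679 sh3 cells (log2 0.78) and in OE_DSTYKwt cells (log2 0.20). Socs5 was higher in UN-SCC679 sh3 cells (log2 0.72) and lower in LLC sh3 cells (log2 -0.23). Of 18 adaptor and RAS-ERK relay genes 9 were higher and 8 lower in LLC sh3 cells, 8 and 8 in UN-SCC679 sh3 cells, and 2 and 3 in OE_DSTYKwt cells, with medians of 0.0046, -0.01 and 0.0042. Plcg1, a phospholipase bound by active EGFR, had 164 ± 1.8 CPM in LLC sh3 cells and 81.0 ± 2.4 CPM with the empty vector (log2 1.03). It was higher in UN-SCC679 sh3 cells as well (log2 0.44). Shc1, an adaptor, was higher in UN-SCC679 sh3 cells (log2 0.78) and lower in LLC sh3 cells (log2 -0.33). The docking protein gene Gab2 was higher in LLC sh3 cells (log2 0.74) and lower in UN-SCC679 sh3 cells (log2 -1.29) and in OE_DSTYKwt cells (log2 -0.43), where Gab1 was higher (log2 0.15). In OE_DSTYKwt cells the Gab1 call was lost in 4 of 15 alternatives (lowest value 0.08, adjusted p = 0.145), and the Gab2 call on log2(TPM + 1) (-0.32, adjusted p = 0.0604).

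Genes known to respond to ERK were higher more often than lower with sh3: 11 and 2 of 16 tested in LLC, and 9 and 4 of 17 in UN-SCC679. In OE_DSTYKwt cells 3 were higher and 7 lower of 17. Of all tested genes 36.2% were higher and 36.4% lower in LLC sh3 cells, 31.8% and 32% in UN-SCC679 sh3 cells, and 14.6% and 15.2% in OE_DSTYKwt cells. The list's medians were 0.18, 0.08 and -0.06, and those of all tested genes 0.0099, 0.011 and 0.0026. In LLC sh3 cells Dusp4 and Dusp6, phosphatases of ERK, were higher (log2 1.42 and 0.90). With sh3 in UN-SCC679, Dusp6 was higher too (log2 1.27) but Dusp4 was lower (log2 -0.30), a call lost in 2 of 15 alternatives. In UN-SCC679 sh3 cells the immediate-early factor gene Egr1 had 65.5 ± 0.49 CPM, against 7.20 ± 0.88 CPM with empty TPLKO (log2 3.19, SE 0.062), while Spry1, a feedback inhibitor, was lower (log2 -1.42). Spry1 was lower in OE_DSTYKwt cells too (log2 -1.49, SE 0.053), as was Etv4 (log2 -0.57). By contrast, Etv4 (log2 0.33) and Spry1 (log2 0.29) were higher in LLC sh3 cells, where Egr1 was not called (log2 -0.54). That Spry1 call was lost in 1 of 15 alternatives. Between the empty vectors of UN-SCC679, 16 of the 17 genes were higher with pLENTI6 than with TPLKO and none lower, where 35.4% of all tested genes were higher and 33.3% lower, with a median of 1.32 beside 0.0098 over all tested genes.

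Most ligands came from 1 transcript. Areg and Ereg have 1 listed transcript each, Hbegf-201 held 98.4% to 99.0% of Hbegf counts as a group mean, and Btc-201 held 95.6% to 100%. In UN-SCC679 Nrg1 counts fell mainly on Nrg1-203 of 18 listed transcripts, with 61.0 ± 2.3% in sh3 cells and 59.6 ± 1.1% with empty TPLKO, and 58.7 ± 1.4% in OE_DSTYKwt cells and 58.5 ± 0.15% with empty pLENTI6. Nrg1-213 held 21.2 ± 2.0% in sh3 cells and 20.9 ± 2.8% with empty TPLKO, and 21.9 ± 1.9% in OE_DSTYKwt cells and 23.9 ± 1.5% with empty pLENTI6. In LLC the few Nrg1 counts were spread unevenly, with 24.1%, 13.3% and 55.7% on Nrg1-203 in sh3 libraries and 70.5%, 63.3% and 35.6% in empty TPLKO libraries. Tgfa-201, the main coding transcript, held 98.1 ± 1.2% of Tgfa counts in LLC sh3 cells and 99.2 ± 0.78% with the empty vector. In UN-SCC679 empty TPLKO cells all 19 Tgfa counts fell on Tgfa-203, annotated as a processed transcript without a coding sequence, and in sh3 cells 13 of 22 fell on Tgfa-201. Egf counts moved between Egf-202 and Egf-209 from library to library of 1 group, with 42.4%, 11.4% and 76.5% on Egf-202 in UN-SCC679 empty TPLKO libraries.

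The genes with the most similar pattern over the 18 libraries were ranked by Pearson correlation of log2 CPM among 10171 genes, as a description. The libraries form 6 groups from 2 lines, which fixes most of the likeness. Areg was most like Dusp2 (r = 0.993), Hsd17b10 (0.990) and Capn1 (0.990), and Ereg like Sh3bp1 (0.974), Rnd2 (0.974) and Dlg4 (0.970). Hbegf was most like Srf (r = 0.980), Dhps (0.979) and Arrb2 (0.975), and Btc like Ptk7 (0.981), Rnf24 (0.981) and Adarb1 (0.964). Nrg1 (Ptprf 0.998, Fat4 0.997, Fam149b 0.997) and Tgfa (Aurka 0.992, Uhrf1bp1 0.991, Golgb1 0.990) followed genes that separate the lines, and Egf was most like Acox2 (r = 0.934), Maged1 (0.934) and Lrrc41 (0.930).

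Markers of other cell types were read beside these results, since leukocytes and fibroblasts also make EGF family ligands. The 8 leukocyte markers summed to 5.15 to 6.31 CPM in LLC sh3 libraries and 6.37 to 7.48 CPM with the empty vector, and to 9.58 to 10.4 CPM in UN-SCC679 sh3 libraries and 6.03 to 7.002 CPM with empty TPLKO. With OE_DSTYKwt they summed to 14.8 to 15.99 CPM, against 13.9 to 16.2 CPM with empty pLENTI6. Cd14 and Csf1r made up nearly all of these sums, and Csf1r alone was at 2.59 CPM in UN-SCC679 sh3 cells against 0.80 CPM with empty TPLKO. Defining leukocyte genes were at or near 0: Ptprc had 13 counts or fewer over any group, Cd3e 7 or fewer, and Adgre1 none. The 7 fibroblast markers summed to 1238 to 1246 CPM in LLC sh3 libraries and 1335 to 1364 CPM with the empty vector, to 13627 to 13952 CPM in UN-SCC679 sh3 libraries and 15601 to 16089 CPM with empty TPLKO, and to 5598 to 5707 CPM with OE_DSTYKwt and 5453 to 5646 CPM with empty pLENTI6. Col1a2 and Col3a1 carried most of these sums, and single fibroblast genes went both ways. In LLC sh3 cells 4 of 7 were higher and 3 lower (median log2 0.65), in UN-SCC679 sh3 cells 5 of 6 tested were higher and 1 lower (median 0.60), and in OE_DSTYKwt cells 3 of 5 were higher and none lower (median 0.22). The 5 endothelial markers stayed at or under 2.13 CPM in every library.

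Epithelial and squamous markers also moved with the groups of UN-SCC679, and the part of these and the fibroblast markers in the ligand results was not tested. The 5 epithelial markers summed to 34.9 to 36.3 CPM in LLC sh3 libraries and 33.7 to 38.2 CPM with the empty vector, to 357 to 379 CPM in UN-SCC679 sh3 libraries and 568 to 594 CPM with empty TPLKO, and to 735 to 761 CPM with OE_DSTYKwt and 883 to 948 CPM with empty pLENTI6. The 7 squamous markers summed to 0.522 CPM or less in every LLC library, to 62.9 to 65.4 CPM in UN-SCC679 sh3 libraries and 39.1 to 45.9 CPM with empty TPLKO, and to 148 to 155 CPM with OE_DSTYKwt and 140 to 149 CPM with empty pLENTI6. Several defining genes of the labelled tumour types were close to absent, though in UN-SCC679 others were present. Epcam had 11 counts or fewer over any group and Cdh1 42 or fewer. Not all epithelial markers were absent, since the sums above, at least 357 CPM in every UN-SCC679 library, came almost wholly from other markers of that list. In UN-SCC679 the squamous keratin gene Krt5 had 5 counts or fewer over a group and Dsg3 1 or fewer, while Sox2 was at 34.2 to 79.9 CPM as a group mean and Trp63, which encodes p63, at 13.5 CPM with sh3 and 2.20 CPM with empty TPLKO. Of the 7 squamous markers, 5 passed the count filter in the UN-SCC679 sh3 comparison, where 3 were called higher and 0 lower. In LLC the adenocarcinoma factor gene Nkx2-1 had 5 counts over the sh3 libraries and none over the empty TPLKO libraries. The 5 alveolar and club markers summed to 0.496 to 1.19 CPM in LLC sh3 libraries and 0.0954 to 0.124 CPM with the empty vector, where Napsa was higher with sh3 (log2 3.01). They summed to 51.6 to 55.2 CPM in UN-SCC679 sh3 libraries and 55.3 to 57.8 CPM with empty TPLKO, and to 36.96 to 39.5 CPM with OE_DSTYKwt and 36.2 to 36.9 CPM with empty pLENTI6, nearly all of it Nkx2-1.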

How the data were processed

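RNA was sequenced in 18 libraries as 75-base reads from a stranded mRNA kit, per the labels' protocols. The authors deposited kallisto estimated counts and effective lengths per transcript, per the file headers; the submitters' processing notes name kallisto, sleuth and mm10, and versions are not given in the sources used here. Counts were summed per gene over 116816 of 118489 transcripts matched to GENCODE M21 (unmatched transcripts held 0.515% to 0.593% of counts) and rounded. Genes passing edgeR's filterByExpr (count 10, total 15) were tested with the quasi-likelihood test of edgeR 4.0.16 (R 4.3.3) after TMM scaling, within the groups of each comparison, with Benjamini-Hochberg adjustment over all tested genes and a threshold of 0.05. SE is the log2 change divided by the root of F. TPM was recomputed from counts and lengths. Alternatives were DESeq2 1.42.0, library size alone, no filter, a filter of 1 CPM, limma 3.58.1 on log2(TPM + 1), length and chromosome-median offsets, a replicate block and leaving out each library. The fit was tested on simulated counts with 200 changed genes.

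The members and lists were chosen with earlier results of these data known. Named genes were all members, receptors and Dstyk, the tested genes within 500 kb of the chromosome 5 members, the 3 genes most like each member among those with a group mean of at least 8 CPM, and, of each other pathway list, the 2 called genes with the largest absolute log2 change in each comparison with an empty vector. No protein table was used, so domains were read from coding sequence.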

Additional observations from a re-analysis of the deposited data

Results flagged for a closer look

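The sh3 effect, against the empty TPLKO vector, differed between the lines for 5 ligands and 2 receptors by the interaction contrast (edgeR's quasi-likelihood test, LLC minus UN-SCC679, log2 scale, 12 libraries), beside 60% of all 15399 tested genes, so that the number of members is near the background. Hbegf had the largest difference of the ligands, 2.80 (adjusted p = 4.63e-14), and it was the one ligand for which every sh3 library was above the empty-vector libraries in LLC and below them in UN-SCC679. In either direction, the groups did not overlap for 75.9% of all tested genes in LLC and 68.1% in UN-SCC679. The share of genes separated in opposite directions was not counted. The difference was -2.44 for Areg (adjusted p = 2.49e-12), -1.38 for Btc (adjusted p = 1.28e-06) and -0.71 for Ereg (adjusted p = 1.85e-06), all higher with sh3 in both lines. For Nrg1, lower with sh3 in both lines, it was -0.51 (adjusted p = 0.0168). Without the second LLC sh3 library it was -0.41 (adjusted p = 0.0794) and without the first LLC empty TPLKO library -0.31 (adjusted p = 0.184). Erbb2 differed by -0.42 (adjusted p = 3.24e-04) and Erbb3 by 1.11 (adjusted p = 6.55e-03, and 0.0514 on log2(TPM + 1)). Causes of these differences were not tested.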

How the results depend on the processing

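The numbers of all genes and of ligands called stayed within 1.5 times the values given in the report in all 230 recalculations over the 7 comparisons. This is a wide limit: the genes called between the pLENTI6 groups ranged from 2887 to 4936, against 4154 in the report. For counts as small as those of the ligands it also lets calls be lost. Between the UN-SCC679 empty vectors, Egf and Nrg1 both lost theirs with the length offset and on log2(TPM + 1). Of 2269 recalculations for single genes, 76 lost the call, 26 gained one, 2 turned the direction of a called value and 2165 did none of these. Among the last were 40 sign changes of values that were not called. Both turned values were of Nrg1: between the UN-SCC679 empty vectors it lay at 0.0070 (adjusted p = 0.904) after the chromosome correction, where the median of chromosome 8 was -0.15, and the difference of its sh3 effect between lines was 0.15 (adjusted p = 0.357) on log2(TPM + 1). The cause was not tested.

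Same-numbered libraries did not deviate together (correlations of -0.084 to 0.095), so the numbers were not taken as pairs. With replicate number as a block, 9925 genes were called in LLC sh3, 8806 in UN-SCC679 sh3 and 3771 in OE_DSTYKwt cells, against 9995, 9112 and 4154 without it, and the ligands called stayed 5, 5 and 3. In the UN-SCC679 sh3 comparison each library correlated best with its own number, a hint from the data and not the design.

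Low counts limit precision: libraries under 100 counts occurred for Nrg1 and Egf in LLC, Egf in both pLENTI6 groups, Tgfa in UN-SCC679, Areg and Btc in UN-SCC679 empty TPLKO cells, and Epgn throughout. Without the first empty pLENTI6 library, 4936 genes were called between the pLENTI6 groups, Egfr was at 0.25 (adjusted p = 5.58e-04), and Areg at 0.07 (adjusted p = 0.611) and Btc at 0.18 (adjusted p = 0.258) were not called.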
